A study of Mus musculus with 6 samples.

Results

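The S100 genes described here are S100a4, S100a6, S100a8, S100a9, S100a10 and S100a11, chosen by symbol, 6 of the 55450 genes counted in the mouse calvarial bone marrow. Their levels were taken in neutrophils, monocytes, T cells, B cells, stromal cells and endothelial cells that were set apart by other genes, and S100a8 and S100a9 were set against Retnlg to separate expression from free neutrophil RNA in the droplets. The study made 6 single-cell libraries from untreated wild-type C57BL/6 mice, 1 library for each age and site. CBMA is the marrow with the suture mesenchyme, taken from the sagittal suture and the parietal bone next to it, and CBMD is marrow of the parietal bone distant from the suture. The ages were 2 months (02m), 12 months (12m) and 18 months (18m). Each library pooled the tissue of 6 to 8 mice stated to be male, so no condition had a replicate library, and whether both sites of an age came from the same mice is not stated in the sources used here.

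S100 proteins are small calcium sensors with EF-hand motifs that act mainly as dimers. S100A8 and S100A9 form calprotectin, a heterodimer stored in neutrophil cytosol that binds zinc and manganese and, once released, signals through TLR4 and RAGE. The other members work largely inside the cell: S100A4 binds nonmuscle myosin IIA, S100A6 (calcyclin) binds the calcyclin-binding protein, S100A10 (p11) joins annexin A2 at the membrane and is locked in its active shape without calcium, and S100A11 (calgizzarin) binds annexin A1. In bone marrow, S100a8 and S100a9 are transcribed strongly by the granulocyte lineage, which need not be their only source, and Retnlg (resistin-like gamma) encodes a secreted protein of neutrophils. Marrow digestion breaks cells, and RNA from the most abundant broken cells enters droplets that hold another cell.

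All 6 genes lie on chromosome 3 of GRCm38 in GENCODE's annotation, in a pair of groups. S100a4 (90603771 to 90606045, + strand), S100a6 (90612882 to 90624181, + strand), S100a8 (90668978 to 90670035, + strand) and S100a9 (90692632 to 90695721, − strand) follow each other, with 22596 bases between S100a8 and S100a9, which are transcribed toward each other. S100a11 (93520488 to 93526287, + strand) starts 2824766 bases beyond S100a9 and lies 28792 bases from S100a10 (93555080 to 93564643, + strand). A processed pseudogene, S100a11-ps (chromosome 12, 73961142 to 73961447), is annotated apart from S100a11, so reads shared by both could have been lost or split and S100a11 levels are uncertain to that extent. Retnlg is on chromosome 16 (48872621 to 48874496, + strand).

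The promoters of the calprotectin pair and of S100a4 are shown because these genes marked opposite cell types: S100a8 and S100a9 were highest in neutrophils and S100a4 in monocytes. The 250 bases before the RefSeq start site of each gene (GRCm38.p6) are written 5′ to 3′ on the gene's own strand, and capitals mark matches, on either strand, to TATAAA (the TATA box), GAGGAA (a core recognised by PU.1) or TTGCNNAA (a C/EBP core). S100a4 is at chr3:90603520-90603769 (+ strand), S100a8 at chr3:90668821-90669070 (+ strand) and S100a9 at chr3:90695722-90695971 (− strand).
S100a4: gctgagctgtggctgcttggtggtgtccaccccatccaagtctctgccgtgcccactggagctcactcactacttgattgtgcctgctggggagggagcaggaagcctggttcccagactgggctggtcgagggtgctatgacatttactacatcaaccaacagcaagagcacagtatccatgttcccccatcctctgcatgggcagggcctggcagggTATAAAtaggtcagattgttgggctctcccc
S100a8: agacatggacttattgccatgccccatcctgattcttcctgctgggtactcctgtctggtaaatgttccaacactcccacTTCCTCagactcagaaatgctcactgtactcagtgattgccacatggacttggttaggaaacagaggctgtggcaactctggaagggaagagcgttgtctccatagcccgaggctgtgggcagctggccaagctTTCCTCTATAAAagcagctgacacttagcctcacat
S100a9: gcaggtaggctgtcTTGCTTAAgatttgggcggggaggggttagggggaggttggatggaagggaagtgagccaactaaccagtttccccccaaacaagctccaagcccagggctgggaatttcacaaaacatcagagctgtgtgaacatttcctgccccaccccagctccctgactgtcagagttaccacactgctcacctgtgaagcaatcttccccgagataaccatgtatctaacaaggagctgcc
S100a4 held TATAAA from base −31 to −26 before the start, and S100a8 held it from −30 to −25. S100a8 also held GAGGAA on the opposite strand from −170 to −165 and from −36 to −31, the second directly before the TATAAA. S100a9 held TTGCNNAA from −236 to −229 and neither of the other motifs in these bases. Of 32851 RefSeq promoters of the same length, 12.4% held TATAAA, 23.3% GAGGAA and 9.56% TTGCNNAA. Among the other members, S100a11 held GAGGAA from −153 to −148 and S100a6 held none of the motifs, while Retnlg held TTGCNNAA from −246 to −239. No promoter matched S100a10.

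The deposited unique molecular identifier (UMI) counts held 43420 barcodes and 261183614 UMIs, and 37576 cells passed the study's stated filter as applied here, more than the study's own count, 2718 to 8580 a library with a median of 2806 to 3930.5 UMIs a cell. Cells were gated by 8 marker genes for each of 15 cell classes, none of them an S100 gene, Retnlg or another of the neutrophil transcripts used below: 32219 cells were gated, 30282 of them in the 6 main classes (19494 neutrophils, 8033 monocytes, 1338 T cells, 610 B cells, 474 stromal cells and 333 endothelial cells). Markers used in the gates are high in their own class partly by selection, so their levels are a description and no independent check. Csf3r reached 1708 counts per 1000000 UMIs (CPM) in neutrophils against at most 123 CPM in another main class. Cd79a reached 1943 CPM in B cells against at most 4.3 CPM. Others were less exclusive, as Csf1r was 222 CPM in monocytes and 65.2 CPM in neutrophils, and Mmp8 1509 CPM in neutrophils and 169 CPM in monocytes. Any pair of libraries shared 6 to 21 cell barcodes. The 12m libraries stood apart from the label of male mice, with Xist at 564 CPM (CBMA) and 596 CPM (CBMD) against 0.252 to 0.36 CPM in the other 4, so age and this difference cannot be told apart at 12m. An automatic doublet call marked under 0.5% of cells in 4 of 6 libraries and was not relied on, so doublets remain in the values except where they are said to be removed.

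S100a8 and S100a9 made up a large part of the neutrophil transcriptome. S100a8 stood at 103159, 105892, 74351, 96531, 100981 and 64645 CPM in neutrophils of CBMA_02m, CBMA_12m, CBMA_18m, CBMD_02m, CBMD_12m and CBMD_18m, the order of libraries used for every run of 6 values here. S100a9 stood at 121902, 111953, 91670, 94106, 103462 and 82278 CPM in the same cells. Together they held 14.7% to 22.5% of all neutrophil UMIs, with the 18m library lowest in each site, and the 6 members together held 15.7% to 24.0%. Outside neutrophils S100a8 lay at 1094 to 1881 CPM in monocytes, 720 to 2199 CPM in T cells, 520 to 1777 CPM in B cells, 180 to 5388 CPM in stromal cells and 522 to 4285 CPM in endothelial cells. The 5 ranges overlapped each other and none reached the neutrophil range. The median of S100a8 in these classes was 1.22% to 1.73% of its level in the neutrophils of the same library. With the top-ranked doublets removed, S100a8 lay at 417 to 1534 CPM in monocytes, 249 to 1209 CPM in T cells, 416 to 1312 CPM in B cells, 175 to 5338 CPM in stromal cells and 297 to 2446 CPM in endothelial cells, with medians of 0.60% to 0.894% of the neutrophil level.

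**Figure D1:**
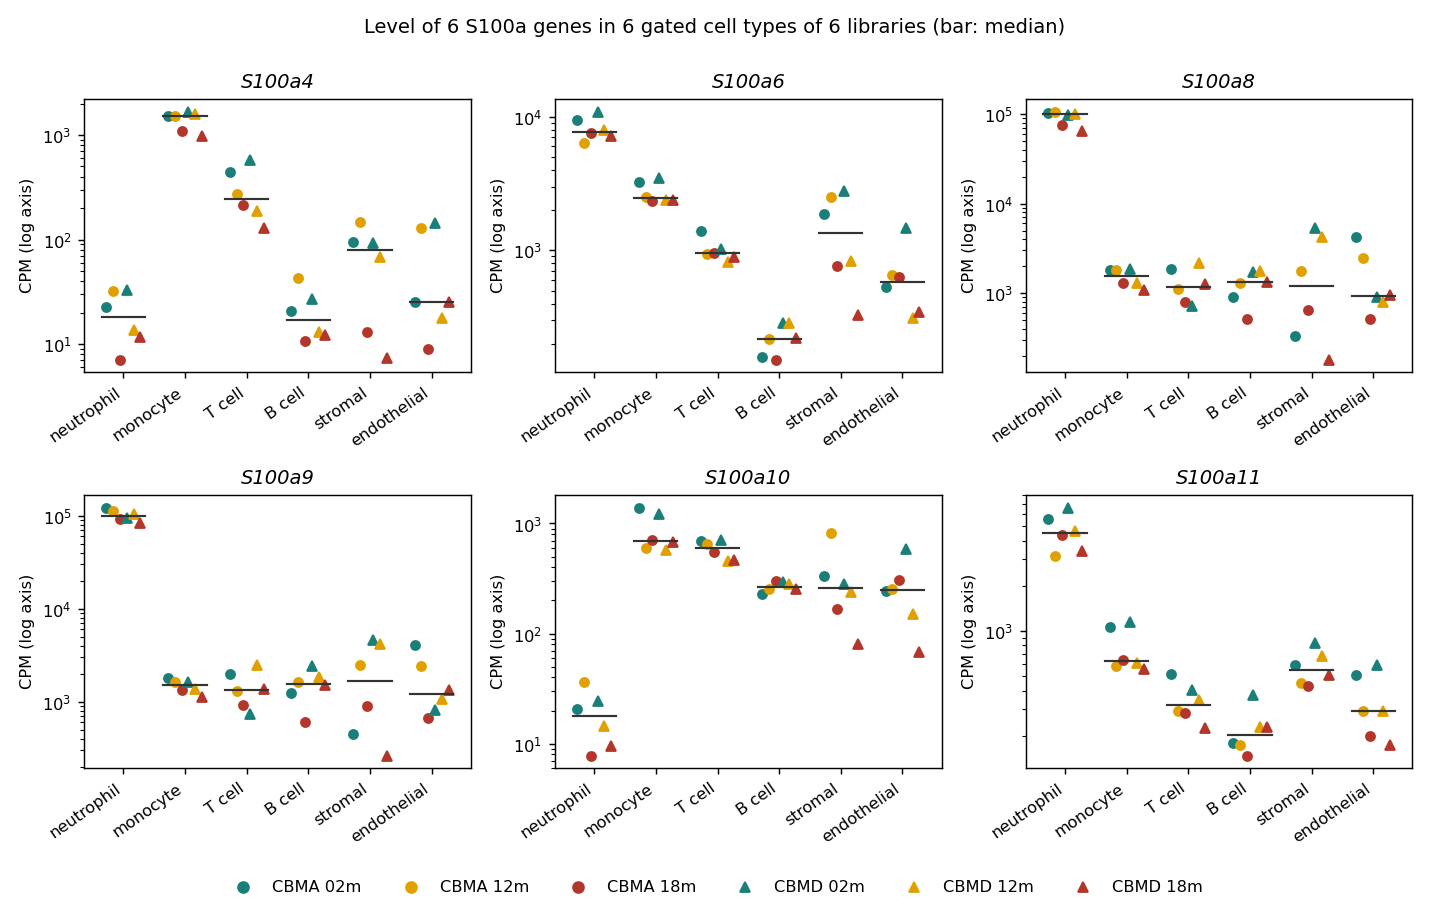
Level of each S100 gene (CPM, log axis) in the 6 main cell classes, 1 point for each of the 6 libraries (circles CBMA, triangles CBMD, colours for age) with the median as a line. S100a8 and S100a9 sit at 64645 CPM or more in neutrophils and at 5388 CPM or less in every other class, S100a6 and S100a11 are highest in neutrophils, and S100a4 and S100a10 are highest in monocytes and low in neutrophils.

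The 6 members fell into 3 patterns between neutrophils and monocytes. S100a8 (log2 fold change 6.75, SE 0.58) and S100a9 (6.96, SE 0.53) were higher in neutrophils in all 6 libraries, and S100a6 (2.47, SE 0.28) and S100a11 (3.47, SE 0.17) were higher in neutrophils as well, by less. S100a4 (−5.50, SE 0.31) and S100a10 (−4.77, SE 0.32) were lower in neutrophils. All 6 passed an adjusted p of 0.05 in edgeR's quasi-likelihood test on the summed counts of each class and library, with the library as a block. Of the 11486 genes tested, 76.4% passed as well, 38.3% higher and 38.1% lower in neutrophils, so the count of members is near the background and their sizes and signs are given as values. Over the 15 pairs of classes, 61 of the 90 tests of members passed, against 56.7% of all tests of all genes. S100a6 passed in 14 pairs, S100a4 and S100a11 in 13, S100a10 in 11, and S100a8 and S100a9 in 5 each.

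For S100a8 and S100a9 those 5 pairs were the ones with neutrophils, all higher in neutrophils. The share of all genes called higher in neutrophils was 38.3% against monocytes, 36.7% against T cells, 35.5% against B cells, 34.8% against stromal cells and 33.1% against endothelial cells. Neither gene passed in any of the 10 pairs among the other classes, with adjusted p of 0.221 to 0.995 for S100a8 and 0.293 to 0.98 for S100a9 in edgeR's test. This does not show that the levels were equal, since the standard error of S100a8 was 0.46 on the log2 scale between monocytes and B cells. The order of the medians below neutrophils (monocytes 1561, B cells 1328, stromal cells 1207, T cells 1185 and endothelial cells 936 CPM for S100a8) is therefore one of neighbours that did not differ beyond their spread. The 10 results against neutrophils passed in the same direction under each of the 18 alternative settings. Without the 12m libraries, 56 of the 61 results passed in the same direction.

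S100a6, the calcyclin gene, had a graded order. It stood at 9420, 6333, 7532, 10928, 7938 and 7128 CPM in neutrophils and at 3277, 2519, 2329, 3494, 2398 and 2396 CPM in monocytes, and the groups did not overlap. Stromal cells spread widely, at 1881, 2501, 760, 2803, 831 and 326 CPM, and overlapped monocytes and T cells (823 to 1397 CPM). Endothelial cells lay at 310 to 1464 CPM and B cells lowest at 151 to 287 CPM. By edgeR's test every neighbour in this order differed except stromal cells and T cells (adjusted p 0.207). In those comparisons 26.8% of all genes were higher in monocytes than in stromal cells, 21.6% higher in T cells than in endothelial cells, and 28.6% lower in B cells than in endothelial cells.

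S100a11, the annexin A1 partner, had a similar order. It stood at 5554, 3157, 4344, 6650, 4633 and 3388 CPM in neutrophils against 1058, 585, 640, 1149, 611 and 557 CPM in monocytes, with no overlap. Stromal cells followed at 430 to 828 CPM, T cells at 224 to 519 CPM, endothelial cells at 173 to 589 CPM and B cells at 147 to 373 CPM. Monocytes and stromal cells did not differ beyond their spread (edgeR adjusted p 0.167), nor did T cells and endothelial cells (adjusted p 0.119). S100a6 and S100a11 were each other's near neighbours over the 36 sums of class and library, with r = 0.89 between their log2 levels as a description.

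S100a4, whose protein binds nonmuscle myosin IIA, set monocytes apart from every other main class. It stood at 1533, 1516, 1101, 1675, 1607 and 978 CPM in monocytes, against 442, 275, 215, 576, 188 and 129 CPM in T cells, and the ranges did not overlap. The difference was 2.26 on the log2 scale (SE 0.27) and passed edgeR's test, where 27.9% of all genes were called higher in monocytes. In neutrophils S100a4 stood at 22.4, 31.9, 7.02, 32.9, 13.6 and 11.7 CPM, and in B cells at 10.8 to 43.2 CPM. Neutrophils passed as higher than B cells (log2 0.88, SE 0.39, edgeR adjusted p 0.045), where 35.5% of all genes were called higher, but 3 of 6 libraries were higher in CPM and the direction turned under total UMIs in place of TMM (−0.071), an alternative added after seeing the data. The median gene was 0.80 lower in neutrophils than in monocytes on the log2 scale under total UMIs and 0.04 higher under TMM, and the neutrophil changes of the members are relative to the TMM scale.

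S100a10, the annexin A2 partner, was shared by monocytes and T cells and low in neutrophils. It stood at 1397, 605, 708, 1225, 576 and 682 CPM in monocytes and at 700, 655, 554, 711, 461 and 462 CPM in T cells, which overlapped (edgeR adjusted p 0.193). B cells, stromal cells and endothelial cells followed at medians of 267, 260 and 250 CPM, without a difference beyond their spread between neighbours (edgeR adjusted p 0.828 and 0.491). Neutrophils lay below them all at 20.9, 36.5, 7.77, 24.7, 14.6 and 9.57 CPM, under the lowest value of every other main class (68.6 CPM, endothelial cells of CBMD_18m). Against endothelial cells, neutrophils were lower (log2 −2.90, SE 0.31), in a comparison where 39% of all genes were called lower in neutrophils.

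Shares of cells followed the levels once every cell was thinned to 1000 UMIs. Neutrophils had the lowest median depth of the main classes (2963 UMIs a cell) and monocytes the highest (8912). An S100a4 UMI was found in 67.0% of monocytes, 14.5% of T cells, 0.995% of B cells and 1.79% of neutrophils, against 2.04% of 147 erythroid cells (exact 95% interval 0.423% to 5.85%), a class that should lack these genes and had a median of 8592.5 UMIs. Of the 148 erythroid cells gated, 55 came from CBMA_18m, 40 from CBMD_12m and 34 from CBMD_18m, and 0 from CBMD_02m, so the background share does not cover every library. An S100a10 UMI was found in 49.2% of monocytes, 36.9% of T cells, 22.9% of B cells and 1.71% of neutrophils, against 1.36% of erythroid cells (0.165% to 4.83%). The neutrophil shares lay inside the erythroid interval for both genes, where 3 (S100a4) and 2 (S100a10) thinned erythroid cells had a UMI. By level, S100a4 stood at 7.02, 13.6 and 11.7 CPM in neutrophils of CBMA_18m, CBMD_12m and CBMD_18m, above the 3.15, 4.48 and 0 CPM in erythroid cells. S100a10 stood at 7.77, 14.6 and 9.57 CPM against 6.31, 4.48 and 29.2 CPM. These erythroid levels rest on 0 to 9 UMIs each. Before thinning, 5.21% of neutrophils and 4.73% of erythroid cells had an S100a4 UMI, and 4.87% and 8.78% an S100a10 UMI. S100a6 was found in 93.1% of neutrophils, 85.4% of monocytes, 44.6% of stromal cells, 42.3% of T cells, 31.6% of endothelial cells and 12.4% of B cells, where the B cell share was near the 10.9% of erythroid cells (6.35% to 17.1%). S100a11 was found in 94.2% of neutrophils, 50.9% of monocytes and 19.7% to 38.5% of the other 4 classes, against 4.76% of erythroid cells. Intervals cover counting error only.

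The same shares did not separate the non-neutrophil classes for S100a8. It was found in 99.7% of thinned neutrophils, and in 39.8% of monocytes, 43.5% of T cells, 47.8% of B cells, 33.0% of stromal cells, 51.1% of endothelial cells and 38.8% of erythroid cells (30.9% to 47.2%). The monocyte, T cell and stromal shares lay inside the erythroid interval, the B cell and endothelial shares just above it. Over the 3 libraries with enough erythroid cells alone, the share was 29.3% of monocytes, 34.6% of T cells, 28.8% of stromal cells, 36.3% of endothelial cells and 42.3% of B cells, against 28.1% of erythroid cells (20.5% to 36.8%), and B cells lay above the interval. B cells were shallower than erythroid cells before thinning (medians of 4434.5 and 8592.5 UMIs over all libraries), and the part of depth in these shares was not tested. Without thinning, 83.5% to 92.0% of cells in each of the 5 other main classes and 87.8% of erythroid cells had a UMI. Per cell, neutrophils held a median of 210 S100a8 UMIs (interquartile range 86 to 411), while monocytes and endothelial cells held 3 and T, B and stromal cells 2. The share with a Retnlg UMI was 89.7% of neutrophils and 9.73% to 15.6% of the other main classes, against 8.84% of erythroid cells.

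Retnlg gave the measure of how much S100a8 and S100a9 would come with free neutrophil RNA. Of Retnlg and the 6 other tracers listed below, 7 of 7 were higher in neutrophils than in monocytes by edgeR's test, where 38.3% of all genes were. Retnlg stood at 21020, 16589, 21187, 18787, 20997 and 20674 CPM in neutrophils and at 34.0 to 1037 CPM in the other main classes. If all S100a8 in a class came from neutrophils of the same library, its UMIs per Retnlg UMI would equal the neutrophil ratio, and the ratio of observed to expected UMIs would be 1. For S100a8 this ratio was 2.28, 1.57, 1.60, 1.36, 1.13 and 1.52 in monocytes, and 2.47, 1.90, 2.15, 3.10, 1.02 and 1.19 in B cells. It was 1.18, 1.77, 1.33, 0.799, 1.40 and 1.21 in T cells, 1.97, 1.16, 1.53, 1.09, 0.91 and 1.48 in stromal cells, and 0.842, 0.893, 1.3, 0.678, 1.2 and 0.837 in endothelial cells. Monocytes and B cells lay above 1 in all 6 libraries, T and stromal cells in 5, and endothelial cells in 2. With the top-ranked doublets removed, the S100a8 median was 1.86 in monocytes, 2.15 in B cells, 1.53 in T cells and 1.44 in stromal cells. Before removal these medians were 1.55, 2.02, 1.27 and 1.32. The endothelial median was 1.197 over 5 libraries, against 0.867 over 6 before removal. The lowest values after removal were 1.07 (monocytes), 1.15 (B cells), 0.794 (T cells), 1.05 (stromal cells) and 0.685 (endothelial cells).

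**Figure D2:**
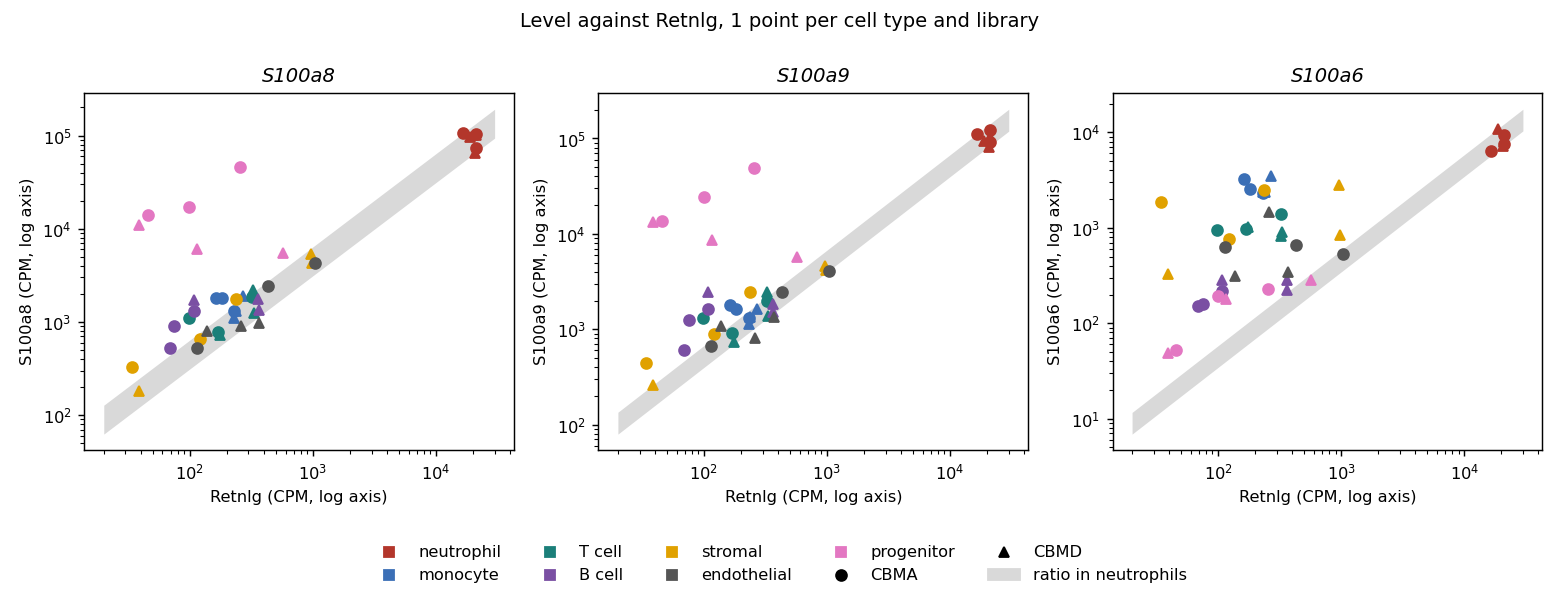
S100a8 level against Retnlg level (CPM, log axes) for each cell class and library, beside the same plots for S100a9 and S100a6 (circles CBMA, triangles CBMD), where the grey band spans the ratios to Retnlg in the neutrophils of the 6 libraries. Outside neutrophils the 5 main classes spread along Retnlg from 34.0 to 1037 CPM with S100a8 and S100a9 close to the band, while progenitors lie above it, and S100a6 lies above it in most classes.

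No class passed the test against the neutrophil ratio after adjustment. In an exact two-sided sign-flip permutation test over the 6 libraries, with 10 comparisons of 2 genes and 5 classes, 0 passed an adjusted p of 0.05, and 4 had an unadjusted p of 0.03125, the smallest that 6 libraries allow (adjusted p 0.0781 by the exact test). These 4 were S100a8 in monocytes (mean log2 of observed over expected 0.62) and B cells (0.87), and S100a9 in monocytes (0.42) and B cells (0.99), each above 1 in 6 of 6 libraries. For the remaining 6 the adjusted p by the exact permutation test was 0.179 to 0.688. A pass after adjustment would have needed most of the 10 comparisons at the smallest p. The 4 at it could therefore not pass whatever their size, and the outcome does not show that they were at the neutrophil ratio. In monocytes the expected UMIs made up 43.9% to 88.6% of the observed S100a8 UMIs, and in endothelial cells 77.0% to 147%.

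The choice of Retnlg as the measure mattered for those 4 results. Other transcripts of the neutrophil lineage also exceeded their Retnlg expectation in monocytes: Lcn2 (lipocalin 2) by a median of 2.60, Camp (cathelicidin) by 2.32, Ltf (lactoferrin) by 2.07, Ngp (neutrophilic granule protein) by 1.80 and Wfdc21 by 1.45. The S100a8 median of 1.55 and the S100a9 median of 1.28 in monocytes lay below the first 4 of them. Ifitm6, an interferon-induced transmembrane gene, reached 59.2. With the sum of the other 6 tracers in place of Retnlg, S100a8 in monocytes was −1.47 and S100a9 −1.67 on the log2 scale (means over libraries), and without Ifitm6, an alternative added after seeing the data, they were −0.44 and −0.64, so both directions turned. In B cells the values without Ifitm6 were −0.41 for S100a8 and −0.29 for S100a9.

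**Figure D3:**
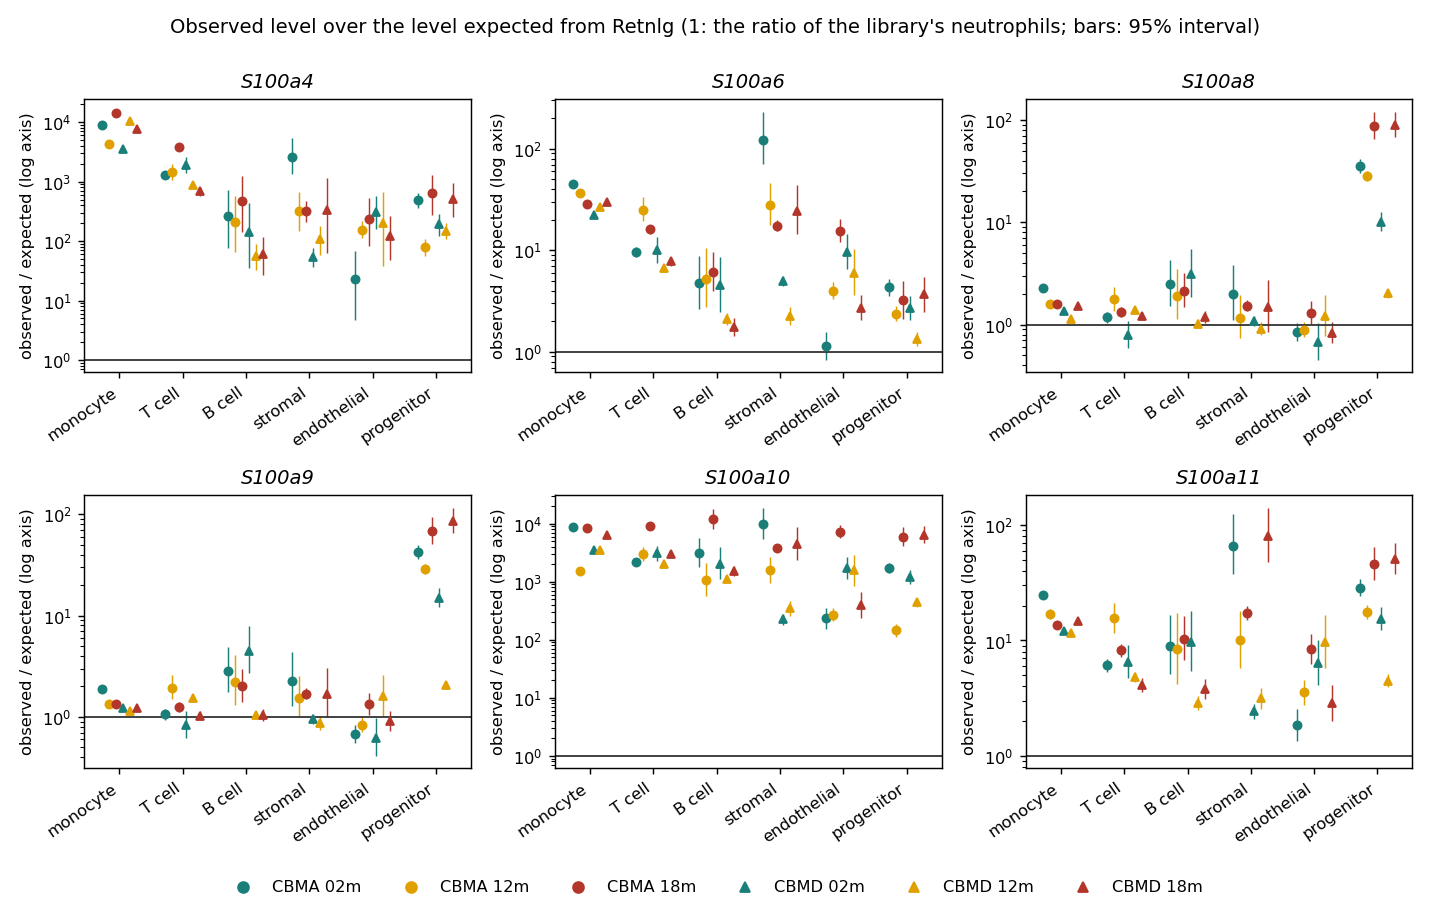
Observed over expected UMIs of each member in the non-neutrophil classes, from the member's UMIs per Retnlg UMI in neutrophils of the same library (log axis, 1 point per library with its 95% interval, line at 1). S100a8 and S100a9 lie at 0.625 to 4.49 in the 5 main classes, S100a8 at 2.02 to 89.2 in progenitors, and S100a4 and S100a10 lie at 690 or more in monocytes and T cells.

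The other 4 members stood further above the Retnlg expectation in monocytes and T cells. Observed over expected in monocytes had a median of 8184 for S100a4, 4926 for S100a10, 29.3 for S100a6 and 14.1 for S100a11, and in T cells 1367, 3011, 9.84 and 6.31. For S100a4 and S100a10 the expectation rests on neutrophil levels of 7.02 to 36.5 CPM, so the ratio alone does not measure expression. After doublet removal the S100a4 median was 259 in B cells and 30.6 in erythroid cells (3 libraries). The S100a10 median was 147 in the same erythroid cells. Expected UMIs were 2.23% to 4.5% of S100a6 in monocytes and 3.97% to 15.0% in T cells, but up to 87.5% in endothelial cells, 56.6% in B cells and 44.5% in stromal cells. For S100a11 the expected part was 4.07% to 8.62% in monocytes, 6.38% to 24.2% in T cells and 10.4% to 54.2% in endothelial cells. Over the 30 sums outside neutrophils, which share libraries and depth, the level of Retnlg had r = 0.85 (rho = 0.73) with S100a8, r = 0.81 (rho = 0.69) with S100a9 and r of 0.09 to 0.24 with the other 4, as a description.

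Cells with a Retnlg UMI held more S100a8 and S100a9 than cells of the same class without one. The 3433 monocytes with a Retnlg UMI (median 9836 UMIs) held S100a8 at 2587 CPM, against 786 CPM in the 4600 without one (8309.5 UMIs), and S100a9 at 2599 against 638 CPM. The same monocytes held S100a4 at 1440 against 1421 CPM, S100a6 at 3075 against 2909 CPM, S100a10 at 1112 against 1021 CPM and S100a11 at 962 against 853 CPM. In T cells S100a8 was 2949 CPM in 501 cells with a Retnlg UMI and 423 CPM in 837 without, while S100a10 was 547 and 544 CPM and S100a4 202 and 267 CPM. S100a6 and S100a11 were also higher in some cells with a Retnlg UMI. In B cells S100a6 was 400 CPM with and 136 CPM without, and S100a11 316 and 155 CPM, while S100a11 was 385 and 289 CPM in T cells and 359 and 221 CPM in endothelial cells. Cells of all 6 libraries were pooled for this split. The part of doublets and of differences between libraries in it was not tested. With the top-ranked doublets removed, S100a8 in T cells was 749, 1093, 298, 724, 1209 and 249 CPM, and Retnlg 99.6, 97.9, 55.6, 179, 136 and 85.2 CPM, so both were lower than before in CBMA_02m, CBMA_18m, CBMD_12m and CBMD_18m.

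Progenitors, gated by Mpo, Elane, Prtn3 and related genes, were the 1 class beside neutrophils with S100a8 and S100a9 far above the Retnlg expectation. S100a8 stood at 17239, 45687, 14053, 5991, 5513 and 10844 CPM, 5.46% to 43.1% of its level in neutrophils, and S100a9 at 5776 to 49151 CPM. Observed over expected was 2.02 to 89.2 for S100a8 (median 31.8) and 2.06 to 86.4 for S100a9 (median 35.6). Both lowest values came from CBMD_12m. The other lineage transcripts moved with it, with a median of 147 for Camp and 59.7 for Ngp. S100a8 was uneven from cell to cell, with a median of 9 UMIs and an interquartile range of 3 to 60 in 855 cells. Erythroid cells lay near the expectation, at 1.10 to 1.51 for S100a8 in 3 libraries.

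Within neutrophils S100a6 and S100a11 were lower in immature than in mature cells in 5 of 5 libraries. Immature cells were those with a UMI of Cebpe or Fcnb, both expressed early in granulocyte maturation, and of neither Cxcr2 nor Il1r2, which mark mature neutrophils in the reverse gate. They numbered 294, against 16824 mature cells, and 5 libraries had enough of both. S100a6 stood at 1156, 1176, 1349, 2945 and 789 CPM in immature cells of CBMA_02m, CBMA_12m, CBMA_18m, CBMD_02m and CBMD_12m, against 11005, 8974, 7918, 11218 and 8637 CPM in mature cells, a mean log2 ratio of −2.82 (SD 0.60, n = 5). S100a11 was 1057 to 2925 CPM in immature cells against 4055 to 6815 CPM in mature cells, with −1.69 (SD 0.32, n = 5). Neither gene's ranges overlapped. S100a9 went the other way, at 104448 to 190636 CPM in immature cells and 88751 to 107241 CPM in mature cells (mean log2 ratio 0.63, SD 0.32), and S100a8 at 79135 to 143092 CPM and 71984 to 95664 CPM (0.36, SD 0.24), higher in immature cells in 5 of 5 libraries but with overlapping ranges. S100a4 (3.72 to 20.2 CPM in immature cells, 6.87 to 41.7 CPM in mature cells) and S100a10 overlapped, and were higher in immature cells in 2 and 1 of 5 libraries.

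Within monocytes, classical cells (Ccr2 or F13a1) had higher S100 levels than nonclassical cells in all 4 libraries that held enough of both, for the 4 members outside the calprotectin pair. Nonclassical cells held UMIs of more than 1 of Treml4, Ace, Spn and Eno3, and cells with genes of both subsets were left out. S100a10 differed most, at 1206, 542, 474 and 459 CPM in classical cells of CBMA_02m, CBMA_18m, CBMD_12m and CBMD_18m, against 38.3, 46.5, 59.0 and 28.6 CPM in nonclassical cells, a mean log2 ratio of 3.88 (SD 0.84, n = 4). These nonclassical values rest on 3 to 11 UMIs a library. S100a6 (1.82, SD 0.39), S100a4 (1.60, SD 0.55) and S100a11 (1.29, SD 0.22) did not overlap between the subsets either. S100a8 and S100a9 overlapped and were higher in classical cells in 3 of 4 libraries each. In 1 library, CBMA_18m, 40 stromal cells with more than 1 gene of CXCL12-abundant reticular (CAR) cells held S100a6 at 274 CPM and S100a10 at 57.8 CPM. The values were 1521 and 380 CPM in 23 cells with more than 1 matrix gene, and neither subset held genes of the other.

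No subset test could pass. Of 12 tests with 2 or more libraries, 0 passed an unadjusted or adjusted p of 0.05 in the exact two-sided sign-flip permutation test. The smallest p was 0.0625 with 5 libraries (adjusted p 0.188 by the exact test) and 0.125 with 4. The stromal pair had 1 library and no test.

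**Figure D4:**
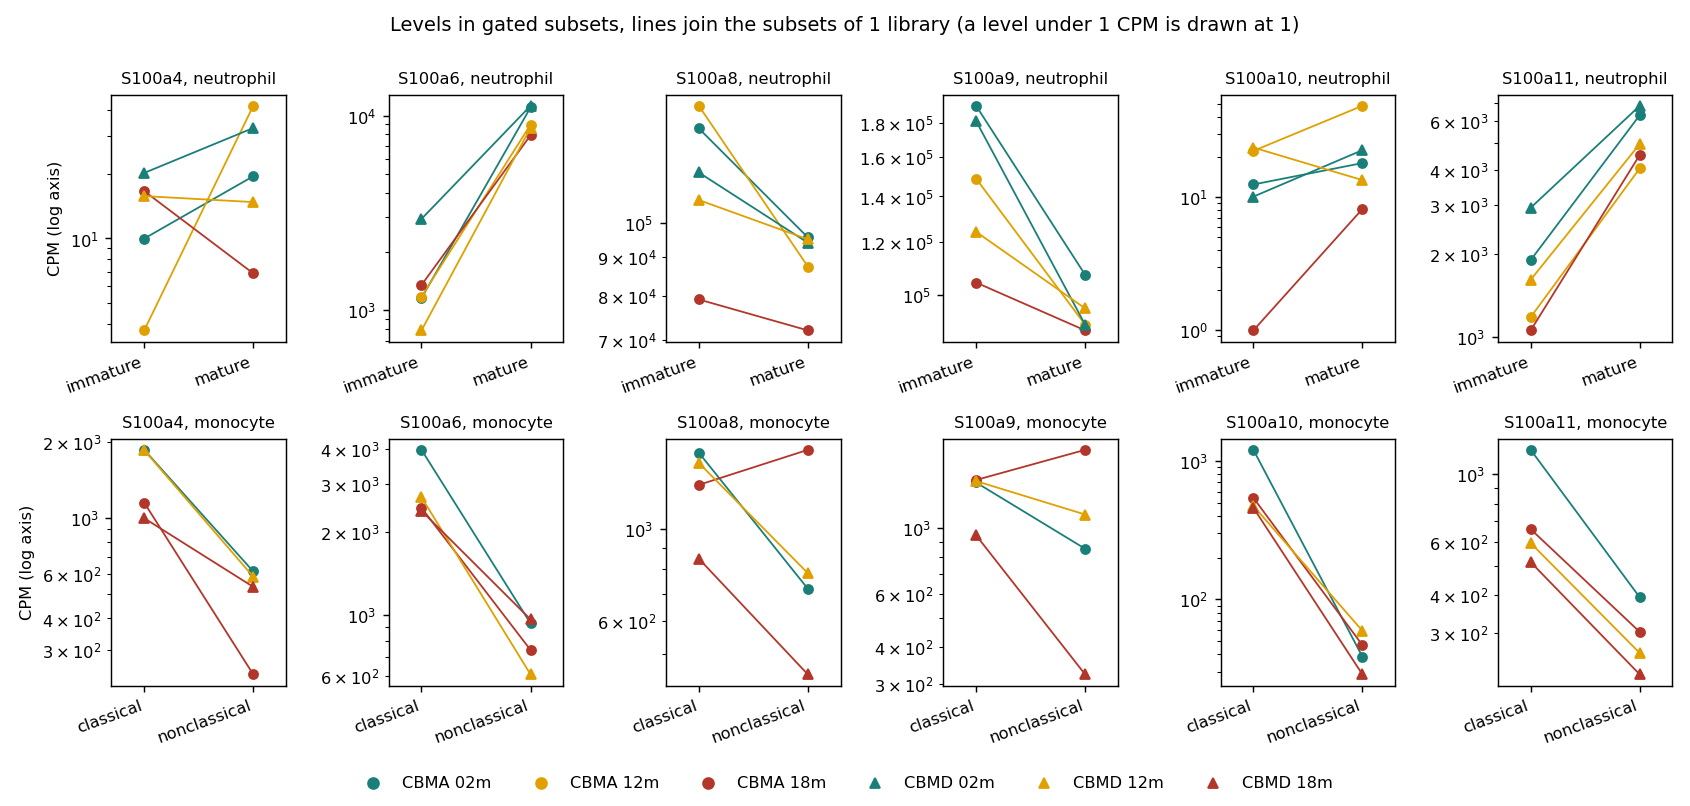
Level of each S100 gene (CPM, log axis, 0 drawn at 1) in immature and mature neutrophils of 5 libraries and in classical and nonclassical monocytes of 4 libraries, with the values of 1 library joined by a line. S100a6 and S100a11 are lower in immature than in mature neutrophils in 5 of 5 libraries, and S100a10 is higher in classical than in nonclassical monocytes in 4 of 4.

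With age, members were called lower more often than higher at 18m, with at least 1 member lower in both sites in every main class. In neutrophils these were only S100a4 and S100a10, both low there, and in B cells only S100a9. For S100a8 and S100a9 outside neutrophils, here and in the counts without doublets, the part of free neutrophil RNA in the ratios was not tested. Each ratio compares 1 library with 1 library, so none has a test, intervals (exact, 95%) cover counting error only, and a ratio was called at 1.5-fold with at least 50 UMIs. Between 18m and 02m, 33 of 36 sets of gene and class had enough UMIs in both sites: 10 were called lower in both sites, where 8.92% of all such sets were, and 0 were called higher in both, where 11.9% were. Another 5 were called in opposite directions in the 2 sites. With the top-ranked doublets removed, the endothelial class of CBMA_02m held 11 cells and was left out, and of 28 sets 14 were lower in both sites, 0 higher and 2 opposite, the 5 new ones being S100a8 in monocytes, T cells and B cells and S100a9 in monocytes and T cells. Between 12m and 02m, 4 of 33 were lower in both sites (background 6.54%) and 0 higher (14.1%), and without doublets 2 of 28 lower and 1 higher. Between 18m and 12m, 5 of 32 were lower in both (6.6%) and 0 higher (2.4%), and without doublets 12 of 32 lower. The sites share no library but are not replicates of an age. Shares of all sets were taken with doublets kept and for calls in the same direction only. The counts without doublets and the opposite calls therefore have no share beside them and are given as counts.

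Monocytes held lower S100a10 and S100a11 at 18m. In CBMA S100a10 stood at 1397 CPM at 02m, 605 CPM at 12m and 708 CPM at 18m, in CBMD at 1225, 576 and 682 CPM, and the ratio of 18m to 02m was 0.507 (0.495 to 0.519) in CBMA and 0.557 (0.542 to 0.571) in CBMD. Both 12m values lay below the 18m value of their site. S100a11 had ratios of 0.605 and 0.485. In these cells 7.26% of all genes were called lower in both sites. S100a4 (0.718 and 0.584), S100a6 (0.711 and 0.686) and S100a8 (0.711 and 0.582) were also below 1 in both sites without reaching the fold in CBMA. Without the top-ranked doublets S100a8 reached it, at 0.619 in CBMA and 0.429 in CBMD, as did S100a9 (0.656 and 0.434, against 0.746 and 0.683 with them). Within classical monocytes alone the S100a10 ratio was 0.449 in both sites, and the S100a11 ratio 0.548 in CBMA and 0.430 in CBMD.

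T cells held lower S100a4 at 18m. The CBMA libraries gave 442 CPM at 02m, 275 CPM at 12m and 215 CPM at 18m, the CBMD libraries 576, 188 and 129 CPM, with ratios of 18m to 02m of 0.487 (0.428 to 0.555) and 0.224 (0.183 to 0.275). S100a11 had ratios of 0.548 and 0.552 in the same cells, where 6.47% of all genes were called lower in both sites. In endothelial cells S100a11 had ratios of 0.391 and 0.294 between 18m and 02m, where 3.83% of all genes were called lower in both sites. S100a9 in B cells was also lower in both sites (0.484 and 0.614, where 7.27% of all genes were).

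Stromal cells held lower S100a6 at 18m. It was 1881 CPM at 02m, 2501 CPM at 12m and 760 CPM at 18m for CBMA, and 2803, 831 and 326 CPM for CBMD, with ratios of 18m to 02m of 0.404 (0.370 to 0.442) and 0.116 (0.0964 to 0.139). S100a10 had ratios of 0.502 and 0.284, in a class where 14.7% of all genes were called lower in both sites. The makeup moved with it, among the cells placed in a subset. CAR cells numbered 40 (CBMA) and 18 (CBMD) at 18m, against 2 and 0 at 02m, and matrix cells 23 and 0 at 18m, against 22 and 19 at 02m. All stromal cells numbered 261 (CBMA) and 55 (CBMD) at 18m, against 53 and 46 at 02m. Over all libraries 330 of 474 stromal cells lay in neither subset. Within the matrix cells of CBMA, 23 cells at 18m against 22 at 02m, S100a6 was 1521 against 1899 CPM (ratio 0.801, 0.677 to 0.947) and S100a10 380 against 234 CPM (1.62, 1.07 to 2.49), so the S100a6 difference was smaller there and that of S100a10 turned. CBMD held no matrix cell at 18m.

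In neutrophils the large members were lower at 18m by less than the fold in most comparisons. S100a8 had ratios of 18m to 02m of 0.721 in CBMA and 0.670 in CBMD, S100a9 0.752 and 0.874, S100a6 0.80 and 0.652, and S100a11 0.782 and 0.509, while Retnlg stood at 1.01 and 1.09. Within mature neutrophils the S100a8 ratios were 0.752 and 0.677, and immature cells were 0.607% of neutrophils at 18m against 3.78% at 02m in CBMA, and 0.501% against 0.515% in CBMD. S100a4 (0.314 and 0.354) and S100a10 (0.372 and 0.388) were called lower in both sites, where 11.6% of all genes were, at levels of 7.02 to 32.9 CPM. Over all libraries their shares of cells lay inside the erythroid intervals given above. At 02m only 14 (CBMA) and 0 (CBMD) erythroid cells were gated, so no background level was measured there. Erythroid cells of CBMA_18m and CBMD_18m held S100a4 at 3.15 and 0 CPM and S100a10 at 6.31 and 29.2 CPM, from 0 to 9 UMIs each. The part of background in these ratios was not tested.

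**Figure D5:**
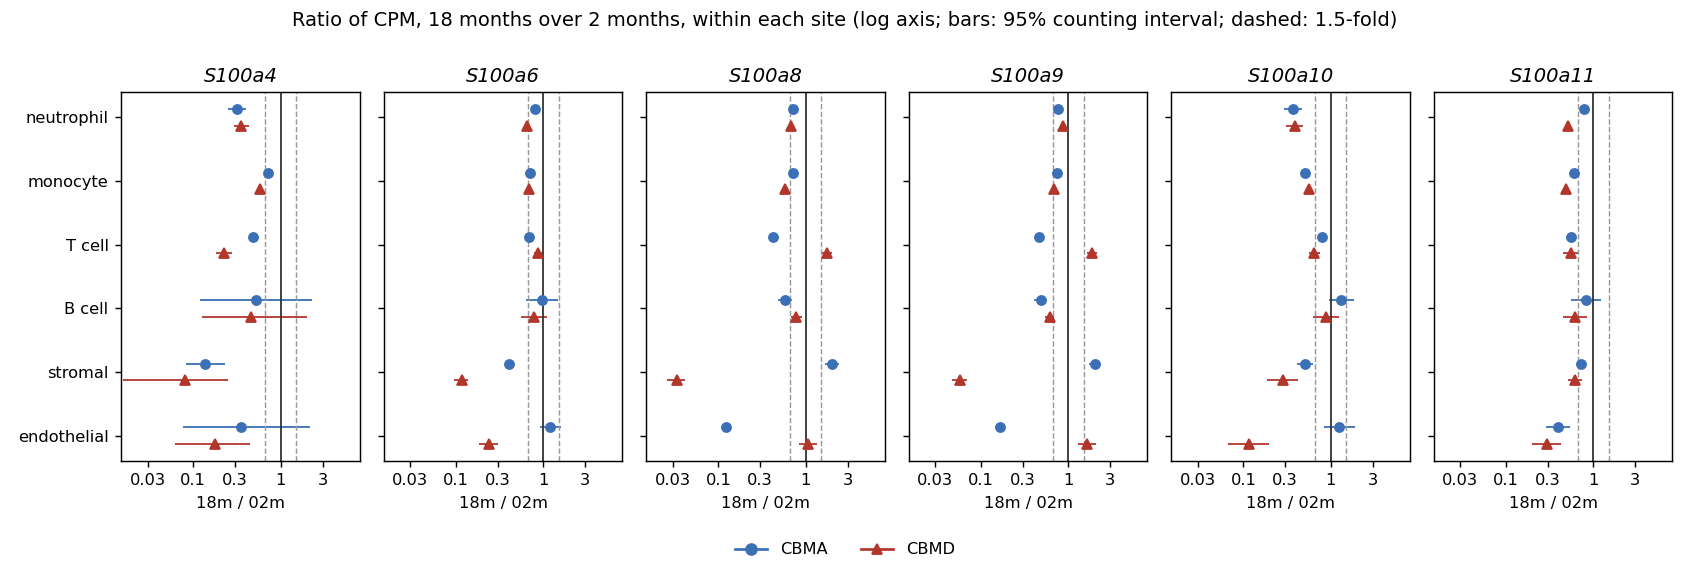
Ratio of the level of each S100 gene at 18m to that at 02m (log axis) in each cell class, circles for CBMA and triangles for CBMD, with exact 95% counting intervals and dashed lines at 1.5-fold. S100a10 and S100a11 in monocytes and S100a4 in T cells lie below the lower dashed line in both sites, and S100a8 in T and stromal cells lies on opposite sides of 1.

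Between sites there was no common direction. CBMA was called higher in 4 sets and lower in 8 of 34 at 02m (7.37% and 9.63% of all sets), higher in 9 and lower in 5 of 34 at 12m (22.3% and 13.4%), and higher in 7 and lower in 7 of 33 at 18m (8.45% and 5.48%). No member was called between sites in monocytes at any age, where the levels rest on 397 to 2565 cells a library. The share of all genes called between sites in monocytes alone was not taken, so this is given as a description. S100a10 in endothelial cells was 305 CPM in CBMA and 68.6 CPM in CBMD at 18m (ratio 4.44), and 245 CPM in CBMA and 589 CPM in CBMD at 02m (0.415), so its direction turned between ages. S100a6 in stromal cells was higher in CBMA at 12m (ratio 3.01, from 20 cells in CBMA and 39 in CBMD) and 18m (2.33), and at 02m it was 1881 CPM in CBMA and 2803 CPM in CBMD (0.671).

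Other genes of the family and the partners of these proteins were measured beside the members. Of 10 other S100 genes, 4 had enough counts to test, and between neutrophils and monocytes 0 were higher and 2 lower in neutrophils, where 38.3% and 38.1% of all genes were. S100a16 had median levels of 236 CPM in endothelial cells and 95.3 CPM in stromal cells and 0.18 CPM in neutrophils, and S100b, best known from glia, 156 CPM in stromal cells and 0.25 CPM in neutrophils. The median of S100g and S100z was 0 CPM in neutrophils. Of 11 partners and receptors, 10 were tested, and 5 were higher and 5 lower in neutrophils than in monocytes, against the same shares of all genes. The partner levels did not always stand where the member was high. Anxa2, the partner of S100a10, had a median of 984 CPM in neutrophils and 632 CPM in monocytes (log2 1.36, SE 0.17). Myh9, which encodes the heavy chain bound by S100A4, had 771 CPM in neutrophils and 418 CPM in monocytes (1.63, SE 0.16). Both were higher in neutrophils, where S100a10 and S100a4 were low and their shares of cells lay inside the wide erythroid intervals. Anxa1, the partner of S100a11, was higher in neutrophils along with it (756 against 197 CPM, log2 2.71, SE 0.21). Cacybp, which encodes the calcyclin-binding protein, was lower in neutrophils (16.1 against 85.8 CPM, log2 −1.47, SE 0.12), where S100a6 was highest. Tlr4, a receptor for calprotectin, was higher in neutrophils (30.7 against 10.2 CPM, log2 2.56, SE 0.21).

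The genes with the most similar pattern over the 36 sums, among 12633 genes and by Pearson's r of log2 levels, are given as a description over sums that share libraries. S100a8 went with S100a9 (r = 0.996), Wfdc21 (0.98) and Retnlg (0.976). S100a6 went with Scnn1a (0.90), Txn1 (0.89) and S100a11 (0.89), and S100a11 with Txn1 (0.96), Slpi (0.90) and Atg3 (0.90). S100a10 went with Crip1 (0.96), Rwdd1 (0.93) and Ndufa9 (0.93), and S100a4 with Tns4 (0.85), Ndufa1 (0.83) and Cx3cr1 (0.83), the fractalkine receptor, which was a marker of the monocyte gate.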

How the data were processed

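The 6 10x Genomics 3′ libraries (v3 chemistry) were analysed. The authors demultiplexed with bcl2fastq and ran Cell Ranger 5.0.1 on GRCm38, and the deposited values are raw UMI counts per gene and barcode. A UMI of a 3′ library counts a molecule, so levels were not divided by gene length. The study's filter was applied to cells (at least 500 and at most 5000 genes, more than 500 UMIs, less than 25% of UMIs mitochondrial). A cell entered a class with UMIs of at least 3 of its 8 markers and at least 2 more than of any other class (7 erythroid markers, since Ahsp was not in the files), and a class needed 20 cells in a library. Counts were summed per class and library and tested with edgeR 4.0.16 (TMM, quasi-likelihood, library as a block, Benjamini-Hochberg over all genes). Libraries are the replicates of a class, and p-values measure a difference within libraries against its spread over libraries. The libraries also differ in age and site. The ratios to Retnlg and the subsets were tested by exact sign-flip permutation over libraries, and ages and sites had no test. Scrublet's top-ranked barcodes (0.8% per 1000 barcodes) were removed as an alternative. The planned subsets of T cells are not reported here, and subset p-values were adjusted over the remaining tests. Scripts were tested on simulated data. Named genes were the members, Retnlg and 6 other neutrophil tracers, 10 other S100 genes, 11 partners and receptors, the 3 genes closest to each member in r, and gate markers. The members and lists were chosen with earlier results of these data known. Alternatives changed the gate, the cell filter, doublets, clusters for the gate, DESeq2 1.42.0, the count filter, the scaling, the block, the tracer and each library left out.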

Additional observations from a re-analysis of the deposited data

Results flagged for a closer look

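Ratios called in opposite directions in CBMA and CBMD were set aside for a closer look, and the difference between sites was not tested for any of them. The share of all sets called in opposite directions was not taken. Of these 8 pairs of ratios, 7 concern S100a8 or S100a9 outside neutrophils, at levels near the Retnlg expectation. In T cells the ratio of 18m to 02m was 0.422 in CBMA and 1.75 in CBMD for S100a8, and 0.464 and 1.85 for S100a9. The ratio of 12m to 02m was 0.596 and 3.05 for S100a8, and 0.655 and 3.34 for S100a9. Retnlg in T cells of CBMA was 323 CPM at 02m, 98.6 CPM at 12m and 169 CPM at 18m, and in those of CBMD 175, 328 and 332 CPM, in the same directions. In stromal cells the ratio of 18m to 02m was 1.99 in CBMA and 0.0334 in CBMD for S100a8, and 2.004 and 0.0573 for S100a9, where Retnlg was 122 CPM at 18m against 34.0 CPM at 02m in CBMA, and 38.9 against 964 CPM for CBMD. In endothelial cells S100a9 had ratios of 0.164 in CBMA and 1.63 in CBMD between 18m and 02m, where Retnlg was 114 CPM at 18m against 1037 CPM at 02m in CBMA, and 368 against 261 CPM for CBMD. With the top-ranked doublets removed, S100a8 in T cells of CBMD was 249 CPM at 18m and 724 CPM at 02m, and S100a9 316 and 750 CPM, so both directions turned and both genes were lower at 18m in both sites.

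The remaining ratio was S100a10 in neutrophils between 12m and 02m, 1.75 in CBMA and 0.593 in CBMD, at 14.6 to 36.5 CPM. Over all libraries its share of cells lay inside the erythroid interval, but CBMA_02m, CBMD_02m and CBMA_12m held too few erythroid cells for a background level.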

How the results depend on the processing

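The 61 member tests passed between cell types became 57 to 70 over 18 alternatives, 56 to 60 of the 61 passing in the same direction in each. Leaving out 1 library gave 59 to 61. No test against Retnlg passed under the alternatives that kept 6 libraries, where a pass needed most of the comparisons at the smallest p. With 5 or fewer libraries, and in every subset test, none could. S100a4 in neutrophils against B cells turned to −0.56 with clusters in place of the gate and to −0.071 with total UMIs in place of TMM, added after seeing the data. Against the sum of the other 6 tracers in place of Retnlg, S100a8 turned to −1.47 in monocytes and −0.41 in B cells, and S100a9 to −1.67 and −0.29. Without Ifitm6 in the sum, also added after seeing the data, S100a8 was −0.44 and −0.41 and S100a9 −0.64 and −0.29. Without doublets, S100a9 in classical against nonclassical monocytes turned to −0.29. Age and site log2 ratios that turned without doublets were in T cells 0.54 (S100a8) and 0.69 (S100a9) for CBMA_12m over CBMA_02m, −1.54 (S100a8) and −1.25 (S100a9) for CBMD_18m over CBMD_02m, and 0.26 (S100a8) for CBMA_18m over CBMD_18m, in stromal cells 1.80 (S100a8) and 1.79 (S100a9) for CBMA_12m over CBMD_12m, and in endothelial cells −0.13 (S100a9) for CBMD_18m over CBMD_02m. As a mean over cells, S100a9 in stromal cells of CBMA_12m over CBMD_12m was 0.36. S100a11 in monocytes against stromal cells passed under 12 of 18 alternatives. With at least 4 markers the stromal class of CBMA_12m held 19 cells and was left out. The thinnest classes, with 20 to 54 cells in a library, limit what B, stromal and endothelial values can show. No paired analysis was possible because each age and site had 1 library, so the labels' replicate numbers pair no samples. Classes and subsets were compared within libraries, and a fit of age with site as a term was not run.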
